A study of Drosophila melanogaster with 4 samples.

Results

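The genes described here encode Polycomb and trithorax proteins, subunits of nucleosome remodelling complexes, and proteins of heterochromatin, histone acetylation and dosage compensation. They were taken by name from a list of 40 genes, which was drawn up with earlier results of these data known, and each was represented by its brightest probe set, the set of probes on the array that reports 1 transcript. A named probe set was found for 31 of the 40, of 10844 genes with one on the array. *ph-p*, *ph-d*, *pho*, *ash1*, *Acf*, *HDAC3*, *Sin3A*, *Su(var)3-9* and *Gcn5* had none in the annotation used and were not analysed here.

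RNA came from whole *Drosophila melanogaster* embryos 3 to 5 h after egg laying at 25 °C. The wild-type group was the yw stock, and the mutant group came from mothers carrying *how* germline clones, so that both the maternal and the zygotic supply of HOW, a STAR-family RNA-binding protein, were lacking. Homozygous mutants were told from their siblings by a GFP balancer chromosome, and the *how* allele is not given in the sources used here. No probe set carries the name *how* in the annotation, so the arrays give no check of the genotype here. There were 2 one-colour Affymetrix arrays per group, and the RNA on an array pooled 5 preparations of about 100 embryos each, so the spread between single embryos was not measured. In whole embryos, fewer cells of a type and less RNA per cell cannot be told apart.

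Polycomb proteins keep developmental genes silent through cell division. Polycomb repressive complex 2 (PRC2) methylates histone H3, and PRC1 binds the mark and ubiquitinates histone H2A. Trithorax proteins act against them by methylating or remodelling chromatin at active genes, and DNA-binding factors bring both sets to Polycomb response elements (PRE). In the fly embryo much of this machinery is loaded into the egg as maternal RNA, and the Hox genes are its best-known targets.

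The comparison asks which transcripts of this machinery had a different level in embryos without HOW. The groups also differed in stock and in the germline clones of the mothers. Effects of these cannot be told apart from the loss of HOW. Only 1 of the 31 measured genes passed the test: *Trl*, which encodes the GAGA factor, fell to 0.490-fold of wild type. The other 30 did not pass, and with 2 arrays per group this does not show that their levels were unchanged. How the count moved with the processing is given at the end. Among all genes tested by their brightest probe set, 3.27% passed, 1.87% higher and 1.4% lower, so 1 of 31 (3.23%) is a share near the background. The test was limma's moderated test on log2 signal, called at a Benjamini-Hochberg adjusted p under 0.05 over all 8380 probe sets that passed a filter on dim signals. All 31 genes passed that filter, and their lowest signal on any array was 108.

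The 31 changes lay in a narrow range. Apart from *Trl*, they ran from -0.77 (*Sce*) to 0.54 (*trx*) on the log2 scale, mutant minus wild type, which is 0.587-fold to 1.46-fold. The absolute log2 change was under 0.25 for 20 of 31 genes (64.5%), against 53.1% of all tested genes. The median change was -0.05, beside 0.0030 over all tested genes, and 21 of 31 changes lay below 0 (67.7%, against 49.7%). That median is close in size to the spread between replicate arrays. The SD of the median log2 signal of the 31 genes between them was 0.040. For 25 genes (80.6%) the 95% interval of the change lay within 2-fold either way, against 67.4% of all tested genes. The intervals of *Trl*, *Sce*, *ash2*, *trx*, *osa* and *Su(z)12* reached past 2-fold on 1 side. The shares over all tested genes were not matched for brightness. The filter let in mean signals down to 39.5, while the lowest signal of the 31 genes on any array was 108.

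**Figure D1:**
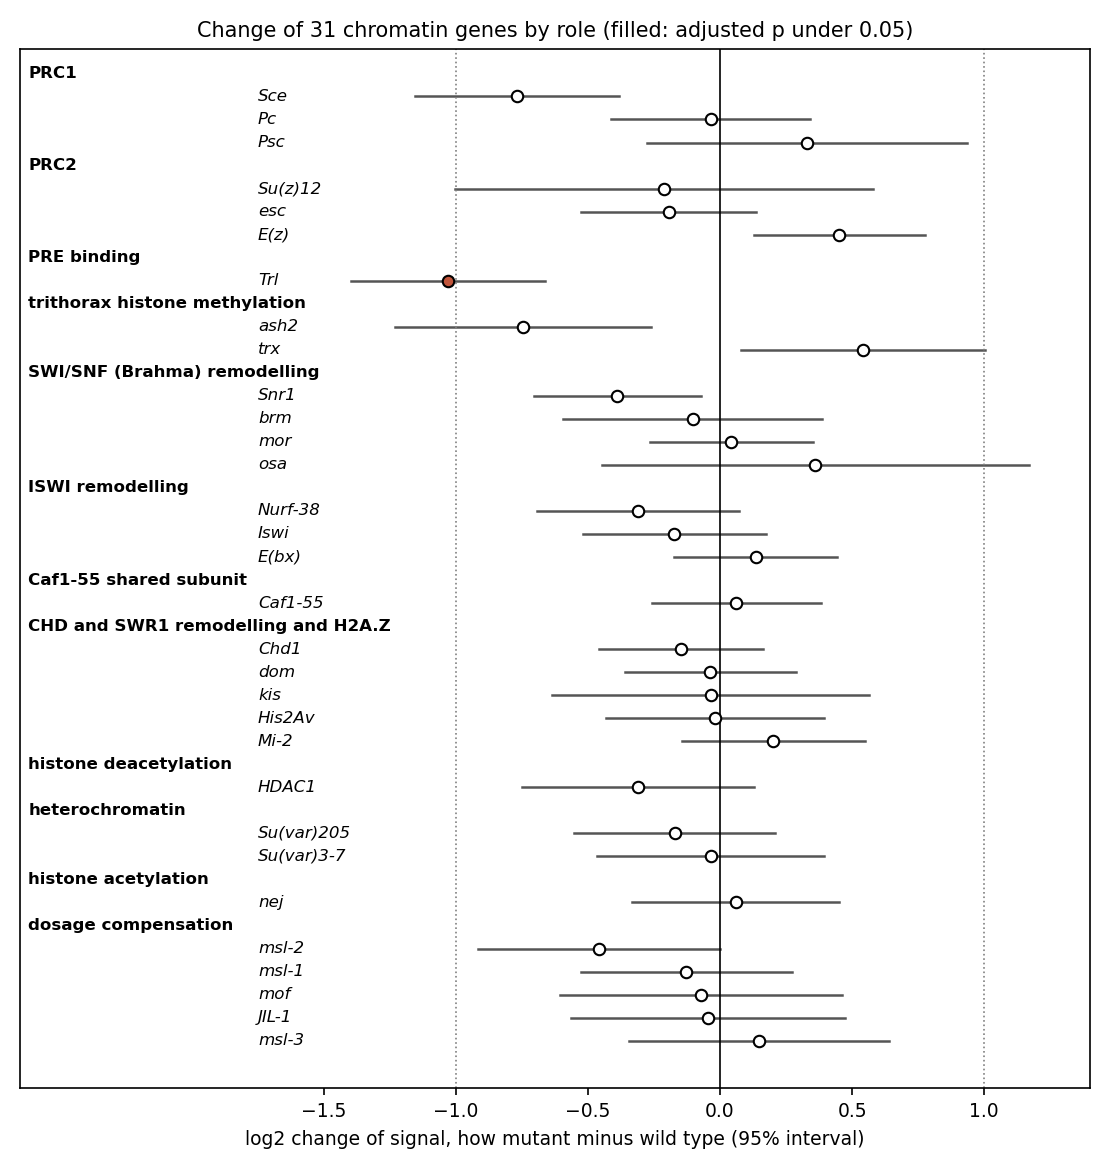
Log2 change of signal, mutant minus wild type, for the 31 measured genes grouped by role, with limma's 95% interval as a line and dotted lines at a 2-fold change either way. *Trl* is the only filled point (adjusted p under 0.05), and 25 of the 31 intervals lie between the dotted lines.

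**Figure D2:**
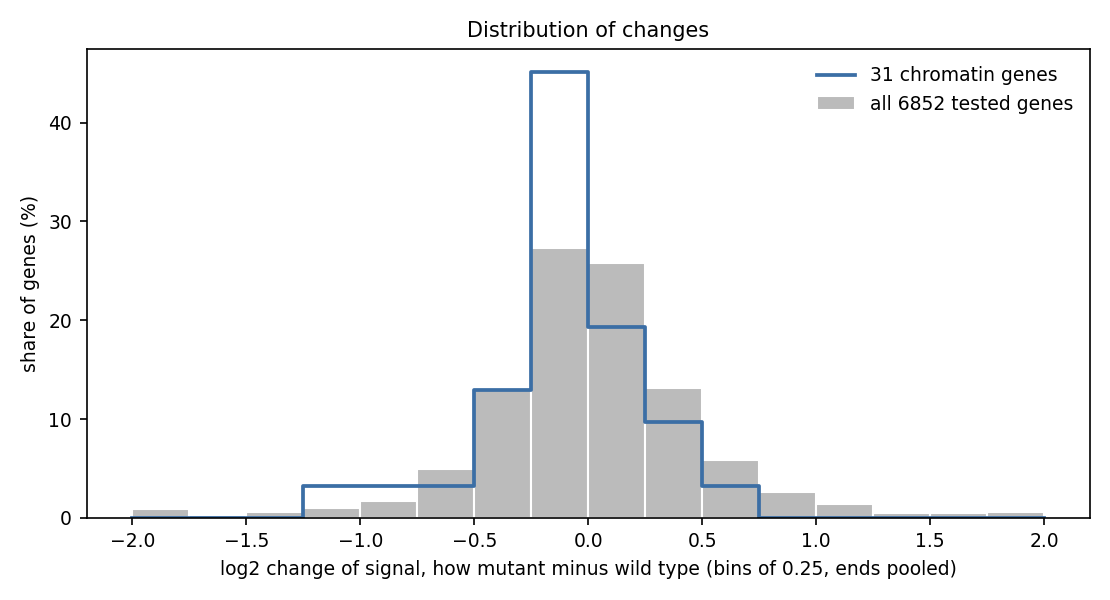
Share of genes (%) in bins of log2 change, mutant minus wild type, for all 6852 tested genes (grey bars) and the 31 chromatin genes (line), with values beyond the ends counted in the end bins. The line stands furthest above the bars between -0.25 and 0, with 14 of 31 genes there. It is also above them in the 2 bins between -1.25 and -0.75, which hold 1 gene each. None of the 31 genes lies above 0.75.

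Both mutant arrays lay above or both below the wild-type arrays for 15 of 31 genes (48.4%), 4 higher and 11 lower. The 11 include the near tie of *msl-1*, with 326.97 on the lower wild-type array against 326.89 and 326.76 in the mutant. Separation of the arrays was seen for 47.8% of all tested genes, 24.3% higher and 23.4% lower, so it is common on these arrays. Separation was joined to an absolute log2 change of at least 0.5 in 4 genes, *Trl*, *Sce*, *ash2* and *trx* (12.9%, against 18.4%). An unadjusted p under 0.05 was reached by 6 genes, those 4 with *E(z)* and *Snr1* (19.4%, against 16.4%).

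*Trl* is described first, since it is the gene that passed. The GAGA factor binds GA-rich sequence in promoters and Polycomb response elements, opens chromatin there, and is counted with the trithorax group. Its signal was 947 and 874 in the 2 wild-type pools against 405 and 490 in the mutant pools. Both mutant values lay far below both wild-type values, and the gap between the groups was wider than the gap within either. The means were 911 ± 51.4 and 448 ± 59.8 (SD, n = 2), a log2 change of -1.03 ± 0.16 (SE), with a 95% interval from -1.40 to -0.66 (limma adjusted p = 0.0141). By p it ranked 107 of 6852 genes. The gene has 1 probe set of its own, and another that the annotation shares with another gene was not used. The direction held in all 13 alternative settings, but the call was lost without wild-type array 1 (adjusted p = 0.0623), mutant array 1 (0.115) or mutant array 2 (0.0532), without limma's mean-variance trend (0.0983) and without the filter on dim probe sets (0.141). With an array left out, the lone array of its group is assumed to vary like the other group.

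**Figure D3:**
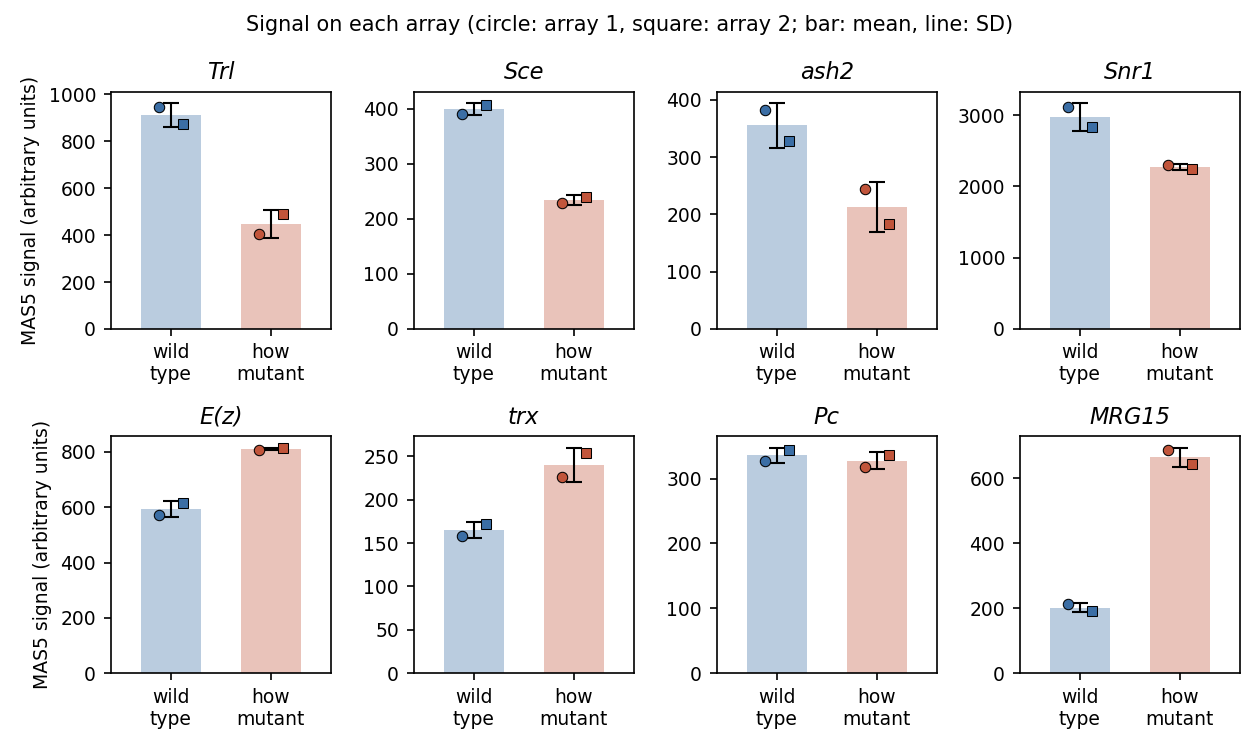
MAS5 signal on each array for 7 chromatin genes of the list and for *MRG15*, with points for the arrays, bars for group means and lines for the SD (n = 2). *Trl*, *Sce*, *ash2* and *Snr1* have both mutant points below both wild-type points, *E(z)*, *trx* and *MRG15* have both above, and those of *Pc* overlap. Only *Trl* and *MRG15* passed the test.

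Several stage-dependent transcripts moved in the same comparison. All 8 late embryo markers that were measured fell, muscle and cuticle genes whose summed signal was 4469 and 4512 in wild type against 570 and 694 in the mutant. *Mlc1*, *Osi6*, *Cpr65Ea* and *up* had mutant signals of 6.53 to 30.4. They passed the filter on mean signal, at 39.5, only through the wild-type group. Of 5 maternal RNA markers tested, 4 rose (*dhd*, *pgc*, *aub* and *spn-E*), and *gcl* (0.33) did not pass. *pgc* was at 35.7 and 36.8 in wild type against 112 and 114 in the mutant. It passed the filter only through the mutant group, and its limma adjusted p was 0.0497. The summed signal of the 7 maternal RNA markers with a probe set was 1120 and 1136 in wild type against 2205 and 2299 in the mutant. That sum includes *osk* and *bcd*, which were too dim to be tested. *osk* was at 24.8 and 7.09 in wild type against 105 and 101 in the mutant, and *bcd* at 36.4 and 38.2 against 37.5 and 17.2. None of the 6 early embryo markers tested passed, among them the mesoderm genes *twi* (-0.05) and *sna* (-0.16), with signals of 263 to 409 and 1829 to 2154 over the 4 arrays. The others were *ush* (0.82, limma adjusted p = 0.0816), *ftz* (0.34), *Kr* (-0.30) and *eve* (-0.55). Both mutant arrays lay above both wild-type arrays for *ush* and *ftz*. For *sna* both lay below, with 2059 and 2154 in wild type against 1948 and 1829 in the mutant. No marker was at 0 on any array. The part of this shift in the values of *Trl* and the other chromatin genes was not tested.

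Of the 5 PRC1 genes 3 were measured, and none passed. *Sce* encodes the RING-finger ligase that ubiquitinates histone H2A. Its signal was 391 and 407 in wild type against 228 and 240 in the mutant, and the 2 groups were well apart with little spread inside either. The log2 change was -0.77 ± 0.17 (SE), with an interval from -1.15 to -0.38, and it narrowly missed the threshold (limma adjusted p = 0.0567). It passed when the probe sets of each gene were averaged (adjusted p = 0.0485), where fewer features are tested. *Pc*, whose chromodomain reads the PRC2 mark, had signals of 328 and 344 in wild type against 318 and 337 in the mutant. The groups overlapped, and the change of -0.04 had an interval from -0.41 to 0.34. *Psc*, the RING-finger partner of Sce, was at 108 and 137 against 134 and 175, with overlapping arrays and a change of 0.33 ± 0.26 (SE).

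All 3 PRC2 genes were measured, and none passed. *E(z)*, the histone methyltransferase, gave 572 and 615 in wild type against 809 and 815 in the mutant. Its mutant arrays were nearly equal and both above wild type, with a log2 change of 0.45 ± 0.14 (SE; limma adjusted p = 0.161). *esc*, the WD-repeat subunit that stimulates E(z), was at 645 and 697 against 585 and 586, a change of -0.19. *Su(z)12*, which E(z) needs for activity, was at 522 and 283 against 439 and 250. In both groups its array 1 was the brighter by about the same factor (1.84 and 1.76), so the change of -0.21 had the wide interval of -1.01 to 0.58.

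Both measured genes of trithorax histone methylation separated, in opposite directions, and neither passed. *ash2*, a shared subunit of the H3 methyltransferase complexes, gave 383 and 328 in wild type against 245 and 183 in the mutant. All mutant values were lower, with a log2 change of -0.75 ± 0.21 (SE; limma adjusted p = 0.124). *trx*, one of the methyltransferases that maintain Hox expression, gave 158 and 171 in wild type against 226 and 254 in the mutant. All mutant values were higher, with a change of 0.54 ± 0.20 (SE; limma adjusted p = 0.232). The 95% intervals were -1.23 to -0.26 for *ash2* and 0.08 to 1.00 for *trx*.

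The 4 genes of the Brahma complex, the fly SWI/SNF remodeller, gave no call. *Snr1*, the SNF5-like core subunit, was at 3112 and 2841 in wild type against 2302 and 2242 in the mutant. The groups did not overlap, and the change was -0.39 ± 0.14 (SE; limma adjusted p = 0.212). *mor*, the scaffold subunit, was at 1872 and 1928 against 2010 and 1906, a change of 0.04 with an interval from -0.26 to 0.35. *brm*, the ATPase, was at 1276 and 881 against 1123 and 866, a change of -0.10. *osa*, the subunit of the BAP form of the complex, was at 231 and 119 against 263 and 172. Its wild-type arrays were 1.94-fold apart, and its change of 0.36 had the widest interval of the 31 genes, -0.45 to 1.17.

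ISWI is the ATPase of a second remodeller family that includes NURF, and none of its 3 measured genes passed. *Iswi* was at 916 and 902 in wild type against 737 and 882 in the mutant, a change of -0.17. *Nurf-38*, an inorganic pyrophosphatase that is part of NURF, was at 1269 and 1638 against 1104 and 1226, a change of -0.31. *E(bx)*, the largest NURF subunit, was at 1941 and 2003 against 2241 and 2090, a change of 0.13. The groups did not overlap for any of the 3, with *E(bx)* higher and the others lower, but the gaps were small. Such separation was seen for 47.8% of all tested genes. The further probe sets of *E(bx)* overlapped between groups, with changes of -0.01 and -0.08. *p55*, the gene of a histone-binding protein shared by NURF, PRC2 and the chromatin assembly factor, was at 2648 and 2392 against 2587 and 2669, a change of 0.06 with an interval from -0.26 to 0.38.

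The CHD and SWR1 remodellers and the histone variant that SWR1 deposits were near wild type, with a median log2 change of -0.04 over 5 genes. *Mi-2*, the NuRD ATPase, was at 2705 and 3171 in wild type against 3514 and 3227 in the mutant, a change of 0.20 with mutant arrays just above the others. *Chd1* was at 1359 and 1479 against 1273 and 1288, a change of -0.15 with the mutant arrays just below. *dom*, the SWR1-type ATPase, and *His2Av*, the H2A.Z variant, overlapped between groups with changes of -0.04 and -0.02. *His2Av* was at 8326 and 10546 against 9292 and 9206, so the wild-type arrays enclosed the mutant arrays. *kis*, a CHD protein of the trithorax group, was at 1907 and 1106 against 1631 and 1231, and its change of -0.04 had an interval from -0.64 to 0.56.

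The enzymes and readers of histone acetylation and heterochromatin gave no call. *HDAC1*, the histone deacetylase also named Rpd3, was at 4552 and 3176 in wild type against 3028 and 3107 in the mutant. The lower wild-type array was close to both mutant arrays, and the change of -0.31 had an interval from -0.75 to 0.13. *nej*, which encodes the acetyltransferase CBP, was at 314 and 348 against 365 and 325, a change of 0.06. *HP1a*, the gene of heterochromatin protein 1, was at 3210 and 2465 against 2522 and 2474, a change of -0.17 with overlapping groups. *Su(var)3-7*, a zinc-finger partner of HP1a, was at 218 and 226 against 220 and 214, a change of -0.03.

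Dosage compensation raises transcription from the male X chromosome through the MSL complex, and all 5 of its listed genes were measured. None passed, and the median change was -0.07. *msl-2*, the male-specific subunit, was at 224 and 232 in wild type against 158 and 174 in the mutant. The groups did not overlap, and the change was -0.46 ± 0.20 (SE; limma adjusted p = 0.312). *msl-1*, the scaffold, was at 327 and 390 against 327 and 327, so 1 wild-type array alone stood off and the other was level with the mutant arrays. *mof*, the acetyltransferase, *msl-3*, a chromodomain subunit, and *JIL-1*, a histone H3 kinase enriched on the male X, overlapped between groups, with changes of -0.07, 0.15 and -0.05. The labels do not part embryos by sex, and the sex ratio was not measured.

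The precision differed between genes. The 95% interval of a log2 change reached 0.31 to 0.81 to either side of it, with a median of 0.39. The wild-type arrays of a gene were a median 1.10-fold apart and the mutant arrays 1.07-fold. Wild-type arrays were over 1.5-fold apart for 4 genes (*Su(z)12*, *osa*, *kis* and *JIL-1*) and mutant arrays for 2 (*Su(z)12* and *osa*). For each of the 4 genes, array 1 was the brighter in both groups. Results with the replicate number in the model are given at the end.

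For 6 genes the array carried more than 1 named probe set. The 2 further sets of *E(bx)* changed by -0.01 and -0.08 where the brightest changed by 0.13. The second sets of *Chd1* (0.08) and *dom* (0.03) and a further set of *kis* (0.06) also lay near 0, with none passing. That of *dom* ranged from 214 to 850 over the 4 arrays, more within wild type than between groups. The remaining sets of *brm*, *nej* and *kis* were too dim to be tested, and their changes did not lie near 0. They were 1.13, 1.12 and -0.50, at signals of 3.41 to 60.3. That of *nej* was at 4.65 and 3.41 in wild type against 8.86 and 8.50 in the mutant.

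Another 83 genes of the same complexes and pathways were listed by name, and 64 of them were measured and tested. Of these 1 passed as higher and 0 as lower (1.56%), against 3.27% passing among all tested genes. The median log2 change was -0.04, and the 63 that did not pass ran from -0.46 to 0.81. The gene that rose was *MRG15*, whose chromodomain protein belongs to the Tip60 acetyltransferase complex. Its signal was 212 and 192 in wild type against 686 and 644 in the mutant, and each mutant value was more than 3-fold the wild-type values. The means were 202 ± 13.7 and 665 ± 29.7 (SD, n = 2), a log2 change of 1.72 ± 0.16 (SE), or 3.29-fold, with an interval from 1.34 to 2.09 (limma adjusted p = 0.00186). It also passed with each array left out in turn, and the call was lost only without the filter on dim probe sets (adjusted p = 0.11), where no probe set passed.

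No gene passed among 9 other Polycomb genes, 10 other trithorax genes, 9 other heterochromatin genes, 15 other genes of histone modification, 2 of dosage compensation and 11 of insulators and histone chaperones. *MRG15* was 1 of 8 other remodelling genes tested.

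**Figure D4:**
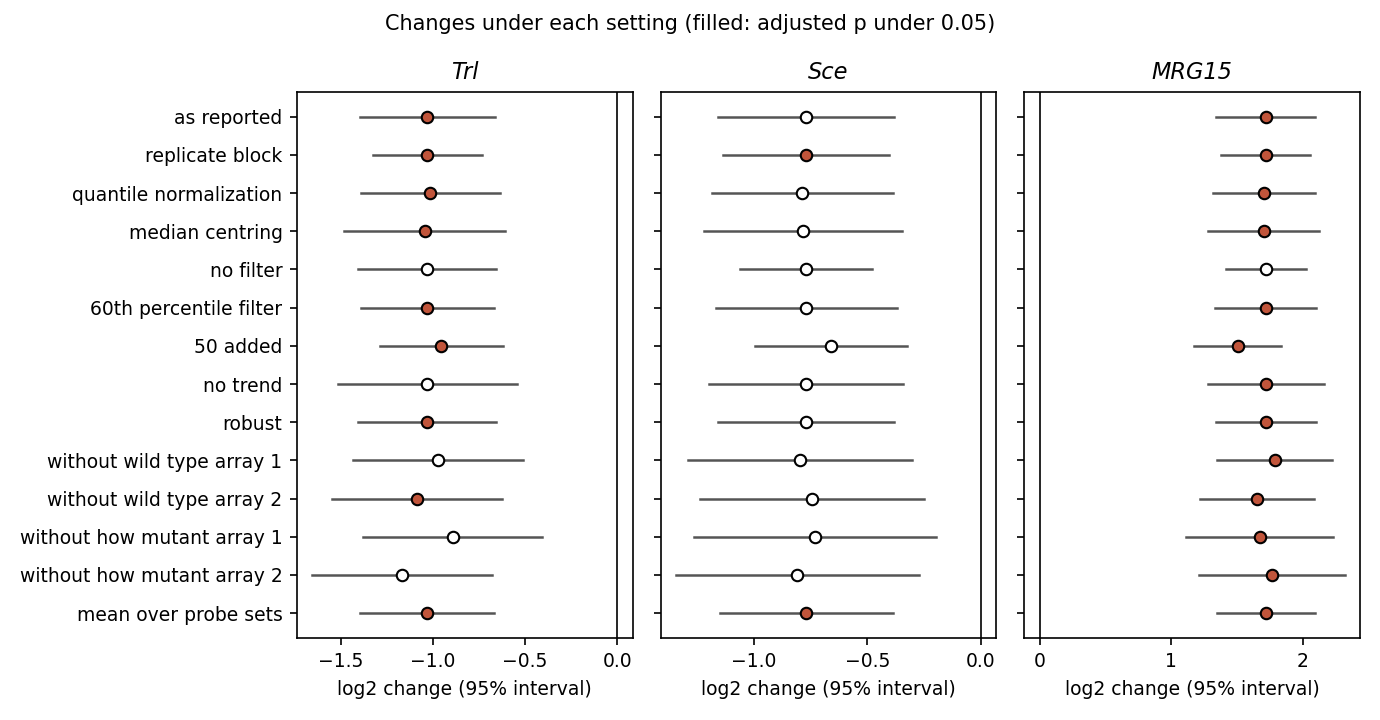
Log2 change, mutant minus wild type, with its 95% interval for *Trl*, *Sce* and *MRG15* under the reported setting and each of 13 alternatives, filled where the adjusted p was under 0.05. No interval reaches 0. *Trl* passes in 8 of the 13 alternatives, *Sce* in 2 and *MRG15* in 12.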

How the data were processed

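The deposited table holds 1 intensity per probe set and array, the signal of MAS5, per the submitters' processing notes, which name neither version nor settings. The arrays had been scaled: leaving out the top and bottom 2% of values, each had a mean of 250.04, and the median of gene probe sets was 75.5 to 82.1. No further scaling was applied. Signals under the 5th percentile (3.38) were raised to it before taking log2. Of 13966 gene probe sets, the 8380 with a mean log2 signal at or above the 40th percentile (a signal of 39.5) were tested with limma 3.58.1 in R 4.3.3 (eBayes with a mean-variance trend, 2 residual and 5.80 prior degrees of freedom), mutant against wild type, and called at a Benjamini-Hochberg adjusted p under 0.05. The number of arrays limits the precision: an exact permutation test of 2 against 2 cannot go below a two-sided p of 0.333. Intervals are limma's 95% intervals.

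Probe sets were named through the platform annotation, and their Entrez IDs gave the current symbols in RefSeq Release 6 plus ISO1 MT (12393 of 12443 with 1 symbol matched); 327 with several symbols were not named. *how* has no named probe set here, so its level was not analysed. The brightest probe set has the highest mean signal over the 4 arrays. The genes and lists were chosen with earlier results of these data known. Genes that passed, or that separated with an absolute log2 change of at least 0.5, and at least 1 of each role, are given by array; of the other lists, genes that passed are named. The steps were tested on simulated data. The alternatives tried were quantile normalization or median centring, the replicate block, no filter or one at the 60th percentile, adding 50 in place of the floor, a fit that is robust or lacks the trend, a threshold of 0.1, averaging the probe sets of a gene, and dropping each array. The text calls 2 genes by names that RefSeq lists as synonyms, p55 and HP1a.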

Additional observations from a re-analysis of the deposited data

How the results depend on the processing

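The count of chromatin genes that passed, 1 of 31, was also 1 with median centring, quantile normalization, a robust fit, 50 added and the stricter filter. It was 5 with the replicate block, 2 at an adjusted p under 0.1, 2 with probe sets averaged, 0 without the trend and 0 without the filter (6 and 7 at an unadjusted p under 0.05), and 0 to 1 without an array. The count over all probe sets, 255, was 825 with the replicate block, 401 at 0.1, 95 without the trend, 0 without the filter (1782 at an unadjusted p under 0.05) and 87 to 153 without an array. Of the other chromatin genes 4 passed with the replicate block, 0 without the filter (6 at an unadjusted p under 0.05) and 1 to 2 without an array. The counts over all probe sets were out of 8380 with the replicate block, at 0.1 and without the trend. Without the filter they were out of 13966. They also rose with the replicate block and at 0.1, so the rise there was not limited to the 31 genes. The 6 chromatin genes at an unadjusted p under 0.05 without the trend have no such count to set beside them. The 15 separated genes became 21 to 27 when an array was dropped, which leaves fewer values to part. The median change of the 31 genes stayed below 0, from -0.09 to -0.01, beside an SD of 0.040 between replicate arrays for their median log2 signal. *Trl* ranged from -1.17 to -0.89.

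With the replicate block *Trl* passed (limma adjusted p = 6.03e-05), as did *Sce* (0.00716), *ash2* (0.0130), *E(z)* (0.0331) and *Snr1* (0.0338). No label ties the replicate number to a batch. Between arrays of the same number, the deviations from the group means correlated over probe sets with r = 0.183. The 2 is the number of such array pairs, not the number of values behind r.

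The sign turned in 18 values of 11 genes, none of them past the threshold. With an array left out the change ran from -0.65 to 0.23 for *Su(z)12*, -0.43 to 0.36 for *kis*, -0.37 to 0.28 for *JIL-1*, -0.37 to 0.16 for *brm*, -0.36 to 0.019 for *HP1a*, -0.19 to 0.15 for *His2Av*, -0.12 to 0.84 for *osa*, -0.077 to 0.0049 for *Pc*, -0.024 to 0.14 for *nej*, -0.011 to 0.14 for p55 and -0.0060 to 0.30 for *msl-3*. *His2Av* was 0.060 with quantile normalization and *kis* 0.013 with probe sets averaged. The cause was not tested.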
